A study of Mus musculus with 27 samples.

Results

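The comparison set 4T1 cells lacking the fission enzyme Drp1 against 4T1 cells lacking Fis1, a protein of the mitochondrial outer membrane. 4T1 is a highly metastatic mouse mammary carcinoma line. The 6 count columns named for Drp1 knockout (KO) clones and the 6 named for Fis1 KO clones were taken, 12 of the 27 libraries in the series. They come from 4 CRISPR-Cas9 clones with 3 libraries each: Drp1 KO clones gs1B8 and gs2_B4, and Fis1 KO clones gs1_B11 and gs2_F6. The remaining libraries are 6 of Mff KO clones, 3 of parental 4T1 cells with no knockout, and 6 of parental cells given leflunomide or DMSO, which are not used here. The clone was the unit of replication, so each genotype had 2 replicates. Nothing in the sources used here ties a clone code to the first or the second clone of the labels, or says whether the 3 libraries of a clone were separate cultures, so the spread between them may be technical. The labels give no promoter, passage number or guide sequence for the clones.

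Mitochondria divide when Drp1, a dynamin-related GTPase of the cytosol encoded by Dnm1l, assembles in rings around the organelle and constricts it. Receptors in the outer membrane, above all Mff and the proteins encoded by Mief1 and Mief2, bring Drp1 to the membrane. Fis1 was first described in yeast as such a receptor, while in mammalian cells its loss often has a milder effect on fission, and it also recruits proteins of mitophagy and can restrain fusion. Fusion is carried out by Mfn1 and Mfn2 in the outer membrane and by Opa1 in the inner membrane. The 2 genotypes therefore lack an enzyme of division and a membrane adaptor of the same pathway.

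Polyadenylated RNA was sequenced, and the totals were 23863311 to 26929711 counts in Drp1 KO libraries, 22770913 to 31295937 in Fis1 KO libraries and 20715428 to 24753800 in parental libraries. Ribosomal RNA took 2.09% to 6.40% of the counts of the 12 KO libraries and transcripts of mitochondrial DNA 3.34% to 3.97%. The epithelial genes Krt8, Krt18, Krt7, Krt19, Epcam, Cdh1 and Esrp1 were detected in every library, and 8 epithelial markers summed to 2510 to 3403 CPM (counts scaled to the size of the library) in Drp1 KO libraries, 3113 to 3712 in Fis1 KO libraries and 3100 to 3132 in parental libraries. Cldn7, a tight-junction claudin among these 8, was at 0 in all 12 KO libraries and at 12.6 to 13.1 CPM in parental ones. The 10 leukocyte markers, of which 2 reached 1 CPM, summed to 7.31 to 9.48 CPM in Drp1 KO and 4.23 to 8.57 in Fis1 KO libraries. The 8 fibroblast markers, of which 2 reached 1 CPM, summed to 5.64 to 8.56 CPM in Drp1 KO and 3.97 to 7.25 in Fis1 KO libraries, and the 7 endothelial ones to 0.0753 to 0.343 and 0.0415 to 0.469 CPM. Their part in the results was not tested. Cd3e, Adgre1, Tyrobp, Col3a1, Dcn, Lum, Emcn and Cldn5 were at 0 throughout.

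The targeted genes were read first, since they check the labels. Dnm1l (ENSMUSG00000022789.15, GRCm38 chromosome 16, 16312230 to 16358959) stood at 71.2, 67.2 and 68.4 CPM in gs1B8 and at 42.6, 41.2 and 40.4 CPM in gs2_B4, against 199, 211 and 219.5 CPM in gs1_B11 and 230.2, 232 and 257 CPM in gs2_F6. Parental cells had 217 to 226 CPM, so the Fis1 KO clones were at the parental level and every Drp1 KO library was below every Fis1 KO library. The log2 fold change, Drp1 KO over Fis1 KO throughout, was -2.02 ± 0.26 (SE, 2 clones a genotype).

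Fis1 (ENSMUSG00000019054.13, chromosome 5, 136953275 to 136966234) was the mirror image. It was at 48.8, 56.0 and 53.8 CPM in gs1B8 and 58.0, 59.7 and 60.3 CPM in gs2_B4, against 21.7, 20.8 and 20.7 CPM in gs1_B11 and 16.3, 18.7 and 16.4 CPM in gs2_F6. Parental cells had 44.6 to 52.5 CPM. The difference was 1.56 ± 0.16 on the log2 scale. In both genotypes the targeted mRNA was lowered rather than absent, and polyadenylated counts do not show whether the remaining mRNA codes for protein.

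**Figure D1:**
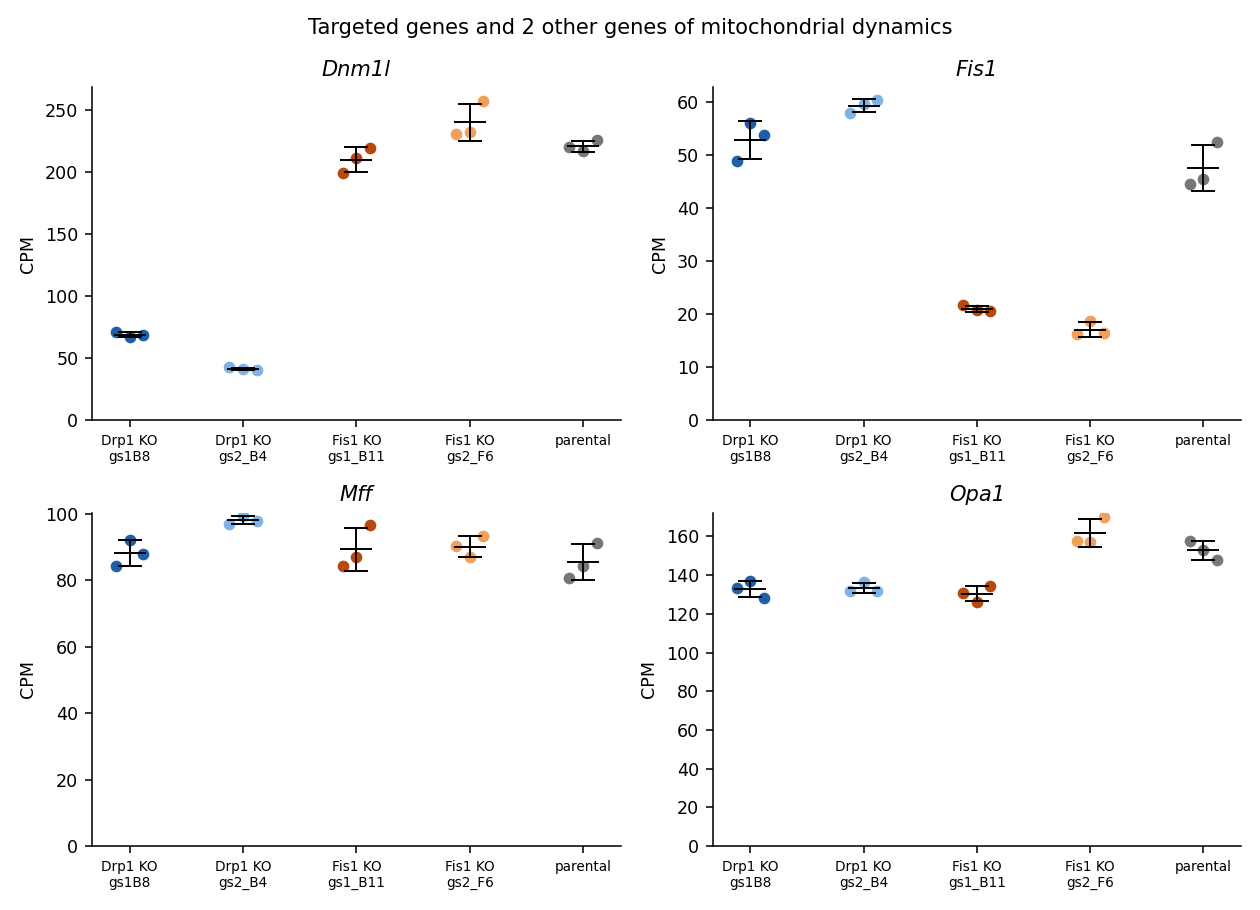
Dnm1l, Fis1, Mff and Opa1 in CPM (vertical axes from 0) in each library of the 2 Drp1 KO clones, the 2 Fis1 KO clones and the parental cells; points are libraries, black lines the clone mean and bars the SD over 3 libraries. Dnm1l lies between 40.4 and 71.2 CPM in Drp1 KO and between 199 and 257 CPM in Fis1 KO, Fis1 is reversed, and Mff and Opa1 overlap.

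When the 3 libraries of every clone were added up, 0 of 15513 genes tested differed at an adjusted p below 0.05 (0%; edgeR quasi-likelihood test, two-sided, Benjamini-Hochberg). Fis1 (unadjusted p = 8.32e-05) and Dnm1l (unadjusted p = 0.000298) had the smallest p of all 15513 genes, and both had an adjusted p of 1. An unadjusted p below 0.05 was reached by 318 genes (2.05%), of which 191 were higher in Drp1 KO (1.23% of those tested) and 127 lower (0.819%). The spread between clones in this fit comes from 6 clone sums, the 2 Mff KO clones included. A permutation of 2 clones against 2 could not give an exact p below 0.333. No gene is called changed by this test, and the values that follow are described as higher or lower without a call.

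Other tools made calls. DESeq2 on the 6 clone sums, Mff KO clones included, called 14 genes, 12 higher and 2 lower in Drp1 KO. With the clone as a random block, limma on the 12 Drp1 KO and Fis1 KO libraries called 4, 3 higher and 1 lower. Only Fis1 and Dnm1l were on both lists. The 2 fits differ in the clones they hold as well as in the tool. A fit that treats libraries as independent, those of Mff KO clones and parental cells included, called 5127 of 13940 genes. Its error is the spread between libraries of a clone and not between clones.

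Clones of a genotype were about as far apart as clones of different genotypes. Over the 13940 genes of the library fit, the root mean square difference between the clone means was 0.51 log2 units for gs1B8 and gs1_B11, 0.56 for gs1B8 and gs2_F6, 0.69 for gs2_B4 and gs1_B11 and 0.86 for gs2_B4 and gs2_F6. The 2 Drp1 KO clones were 0.69 apart and the 2 Fis1 KO clones 0.68. The Drp1 KO clone gs1B8 was therefore nearer to either Fis1 KO clone than to the other Drp1 KO clone. Per gene, the median gap between genotype means was 0.14 log2 units, against 0.20 between the Drp1 KO clones and 0.25 between the Fis1 KO clones. It exceeded both clone gaps for 2231 of 13940 genes (16%). A mean of 2 clones varies less than a single clone, so a smaller genotype gap is expected even where genotypes do not differ. The share of genes expected to exceed both gaps in that case was not computed, so the 16% has no reference.

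**Figure D2:**
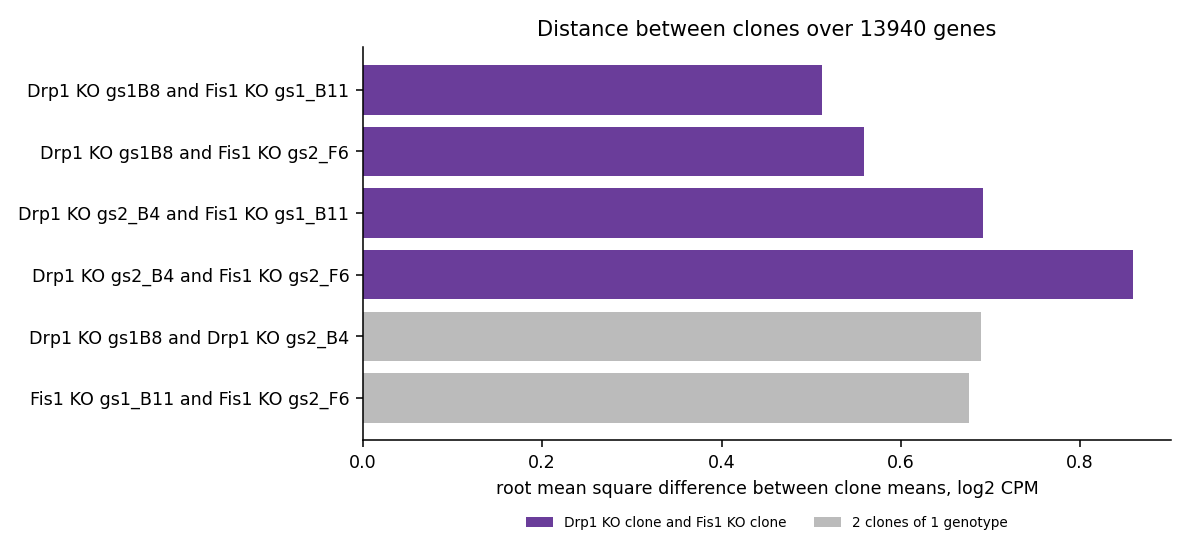
Root mean square difference in log2 CPM over 13940 genes (horizontal axis, from 0) between the means of each pair of clones; purple bars pair a Drp1 KO clone with a Fis1 KO clone and grey bars pair 2 clones of a genotype. The 4 purple bars run from 0.51 to 0.86 and the grey bars stand at 0.69 and 0.68.

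Pairs of clones compared at the library level gave between 4475 and 7282 called genes for a Drp1 KO clone against a Fis1 KO clone, 5710 between the Drp1 KO clones and 6628 between the Fis1 KO clones, of 13940. All 4 pairings passed with the same sign for 220 genes higher in Drp1 KO (1.58%) and 254 lower (1.82%). The 6 Drp1 KO libraries lay above all 6 Fis1 KO libraries for 382 genes of 15513 (2.46%) and below them for 467 (3.01%). The genes named next were taken by the smallest p among those with no such overlap and at least 5 CPM in the higher genotype, 10 in each direction.

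The main receptor and the fusion genes overlapped between genotypes. Mff, the main Drp1 receptor, had 84.3, 94.6 and 99.3 CPM (lowest, median and highest of 6) in Drp1 KO and 84.2, 88.6 and 96.7 CPM in Fis1 KO libraries, a log2 fold change of 0.07 with a 95% interval from -0.24 to 0.37. Mfn1 was at 0.02 (-0.52 to 0.56), Mfn2 at -0.10 (-0.53 to 0.33) and Opa1 at -0.12 (-0.49 to 0.25). Direction turned with a clone left out for Mff (-0.01 without gs2_B4), Mfn1 (-0.18 without gs1B8) and Opa1 (0.05 without gs2_F6). Mief1 was at 0.10 ± 0.18 and Mief2 at -0.15 ± 0.24. Of 21 tested fission genes, which include the 2 targets, Mtfp1, an inner-membrane promoter of division, came next by p with 1.80 ± 0.73, and it ranged from 0.819 to 4.82 CPM in Drp1 KO and from 0.384 to 0.933 in Fis1 KO libraries. Its high values were those of gs2_B4, which averaged 3.90 CPM, against 0.863 in gs1B8.

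Dhodh, the mitochondrial enzyme of pyrimidine synthesis that leflunomide inhibits, was lower in every Drp1 KO library, with 10.9, 11.5 and 13.8 CPM (lowest, median, highest) against 14.7, 15.4 and 16.5 CPM in Fis1 KO. The log2 fold change was -0.37 ± 0.17 (edgeR unadjusted p = 0.0722). Parental cells had 16.8 to 19.6 CPM. Of the 17 tested genes of pyrimidine synthesis and salvage, 7 were higher and 10 lower in Drp1 KO, and the median was -0.01, beside a median of 0.00 over all genes tested.

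Genes that lie next to the targets did not share their difference, with 1 exception. Within 1 Mb of Dnm1l, 16 other genes had a fitted log2 CPM above 2, and their log2 fold changes ran from -0.22 to 0.17. Within 1 Mb of Fis1 there were 28, with a median of 0.05. Orai2, 782562 bp from Fis1, was at 1.45, and the next largest difference among the 28 was 0.27 in size.

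Orai2, a subunit of store-operated calcium channels, and the long noncoding RNA D5Ertd605e, both on chromosome 5, had the smallest p after the targets among the genes that had no overlap and at least 5 CPM. Orai2 had 7.89, 8.69 and 9.84 CPM (lowest, median, highest) in Drp1 KO libraries and 2.20, 2.92 and 4.66 CPM in Fis1 KO libraries, with 6.01 to 7.50 in parental cells. D5Ertd605e had 6.44, 7.03 and 8.0 CPM in Drp1 KO and 1.45, 2.18 and 3.00 CPM in Fis1 KO, with 7.55 to 8.42 in parental cells, and its log2 fold change was 1.68 ± 0.31. For both, the Fis1 KO clones were below the parental level. The Drp1 KO clones were near or below it for D5Ertd605e, while for Orai2 every Drp1 KO library was above every parental one.

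A level in Drp1 KO above both Fis1 KO and parental cells, as in Orai2, was also seen in other genes. Selp encodes P-selectin, an adhesion receptor better known from platelets and endothelium. It had 15.6, 14.9 and 17.9 CPM in gs1B8 and 19.7, 25.8 and 25.9 CPM in gs2_B4, against 6.61, 7.20 and 9.68 CPM in gs1_B11 and 5.69, 5.31 and 6.99 CPM in gs2_F6, with 2.24 to 2.55 in parental cells. All 4 clones were above the parental cells, the Drp1 KO clones further (log2 fold change between genotypes 1.55 ± 0.39). Il7, a cytokine for lymphocytes, had 5.42 to 8.11 CPM in Drp1 KO libraries, 2.39 to 3.16 in Fis1 KO and 3.81 to 4.95 in parental libraries (1.29 ± 0.31). Stat6, the transcription factor of interleukin 4 and interleukin 13 signalling, had 102 to 130.4 CPM in Drp1 KO, 70.7 to 87.7 in Fis1 KO and 87.7 to 97.1 in parental libraries (0.58 ± 0.15). Reads of Stat6 may include some of the overlapping gene Nab2, which averaged 266 counts against 2472 for Stat6.

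Of the remaining genes on this side, Chst11, a chondroitin sulfotransferase, had 10.9 to 29.1 CPM in Drp1 KO and 2.64 to 6.93 in Fis1 KO libraries, with 13.1 to 14.1 in parental cells (2.08 ± 0.54). Manba, a lysosomal mannosidase, had 16.8 to 17.9 CPM in Drp1 KO and 8.24 to 11.7 in Fis1 KO libraries (0.80 ± 0.20). Mcub, the inhibitory subunit of the mitochondrial calcium uniporter, had 9.71 to 14.9 CPM in Drp1 KO and 5.36 to 8.40 in Fis1 KO libraries (0.86 ± 0.22). Parental cells had 14.5 to 16.2 CPM of Mcub, so that 2 gs2_B4 libraries reached that range and the other Drp1 KO and all Fis1 KO libraries were below it. Unadjusted p for these 10 genes ran from 8.32e-05 to 0.0106 in edgeR, and every adjusted p was 1.

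Nfkbia had the smallest p in the list of cytokines, chemokines and NF-kappaB targets. It encodes the inhibitor that holds NF-kappaB in the cytoplasm and is itself induced by NF-kappaB. Its promoter is shown because the gene differed in the same direction in both Drp1 KO clones, and that of the chemokine Cxcl1 because a like motif goes there with a level that was high in 1 clone only. Both are RefSeq windows of GRCm38.p6 from 250 bases before to 50 bases after the annotated start, 5′ to 3′ on the gene's strand, Nfkbia at chr12:55492598-55492897 (minus strand) and Cxcl1 at chr5:90890995-90891294 (plus strand), with matches to GGNNTTNCC on either strand in capitals.
Nfkbia: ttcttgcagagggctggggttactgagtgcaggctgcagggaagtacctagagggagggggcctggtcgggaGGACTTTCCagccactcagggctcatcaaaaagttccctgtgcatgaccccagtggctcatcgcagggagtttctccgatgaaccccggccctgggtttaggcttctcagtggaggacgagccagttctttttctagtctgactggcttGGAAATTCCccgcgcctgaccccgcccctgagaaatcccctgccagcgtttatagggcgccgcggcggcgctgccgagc
Cxcl1: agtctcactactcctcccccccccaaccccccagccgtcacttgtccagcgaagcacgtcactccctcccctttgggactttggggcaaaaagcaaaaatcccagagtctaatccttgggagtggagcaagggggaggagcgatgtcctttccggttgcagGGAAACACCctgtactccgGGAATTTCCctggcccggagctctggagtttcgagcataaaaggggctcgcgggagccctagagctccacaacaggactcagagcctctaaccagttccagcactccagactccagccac
Each window holds 2 matches. The motif, a loose form of the NF-kappaB site, was shortened by a base after a first search. It was found in 16% of the 32851 promoter windows. Counted by gene, with a match in any window of the gene, it was in 13 of 19 matched genes of the cytokine list. That list was drawn up from known NF-kappaB targets. As windows and genes are counted differently, the shares are not a comparison and say nothing about the clones. A match is a string of letters and not a measured site.

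Nfkbia stood at 51.6, 49.2 and 49.2 CPM in gs1B8 and 61.3, 60.2 and 67.6 CPM in gs2_B4, against 38.2, 34.2 and 32.3 CPM in gs1_B11 and 36.0, 32.3 and 33.8 CPM in gs2_F6. Every Drp1 KO library was above every Fis1 KO and every parental library (34.7 to 39.9 CPM). The log2 fold change was 0.73 ± 0.16 (edgeR unadjusted p = 0.00504, adjusted p = 1). Cxcl1, a neutrophil chemokine, had 25.3, 24.8 and 32.7 CPM in gs1B8 and 169, 204 and 352 CPM in gs2_B4, against 21, 25.4 and 44.7 CPM in gs1_B11 and 68.8, 59.3 and 70.6 CPM in gs2_F6. Its groups overlapped, since gs1B8 lay below gs2_F6, and the log2 fold change was 1.51 ± 0.96.

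The list of cytokines, chemokines and NF-kappaB targets had 29 tested members, of which 26 were higher in Drp1 KO and 3 lower, with a median log2 fold change of 0.53. None was called, Nfkbia was the only member with an unadjusted p below 0.05 in edgeR, and 3 members (Nfkbia, Nfkbie and Relb) lay wholly above the Fis1 KO libraries, as did 2.46% of all genes tested. The median was 0.28 and 0.07 for gs1B8 against gs1_B11 and gs2_F6, and 0.75 and 0.92 for gs2_B4 against the same clones. The medians were larger for gs2_B4 than for gs1B8, and without gs2_B4 the fitted median was 0.0056. The granulocyte factor Csf3 had 15.2, 15.4 and 19.8 CPM in gs1B8 and 69.1, 85.1 and 114 CPM in gs2_B4, against 14.9 to 22 in Fis1 KO libraries. Il1a, the alarmin interleukin 1 alpha, had 35.1 to 73.3 CPM in gs1B8 and 404 to 725 in gs2_B4, against 54.2 to 219.8 in Fis1 KO libraries. The chemokine Cxcl5 had 48.5 to 60.0 CPM in gs1B8 and 366 to 661 in gs2_B4, against 37.2 to 56.6 in gs1_B11 and 190.1 to 247 in gs2_F6.

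Interferon-stimulated genes leaned the same way, with 39 of 43 tested members higher in Drp1 KO, a median of 0.32, no call and no member with an unadjusted p below 0.05 in edgeR. The 4 pairings of clones had medians of 0.50, 0.07, 0.82 and 0.35. In 9 members the Drp1 KO libraries lay wholly above the Fis1 KO libraries, beside 2.46% of all genes tested. Among these, Ifitm3, a restriction factor of viral entry, had 105 to 124 CPM in Drp1 KO and 64.1 to 74.5 in Fis1 KO libraries, and the guanylate-binding protein gene Gbp2 had 8.03 to 15.8 CPM in Drp1 KO and 4.56 to 7.06 in Fis1 KO libraries. Their standard errors were 0.57 and 0.83 around log2 fold changes of 0.65 and 0.90. Ifit2, the member with the smallest p, overlapped, with 2.94 to 5.94 CPM in Drp1 KO and 0.489 to 3.52 in Fis1 KO libraries. Parental libraries had 9.06 to 11.1 CPM of Ifit2, so every KO library was below them. Higher in Drp1 KO here means higher than in Fis1 KO and not higher than in parental cells. Of 21 genes of antigen presentation by MHC class I, 18 were higher in Drp1 KO, with a median of 0.19, and Psmb8, a subunit of the immunoproteasome, had 1.22 to 2.64 CPM in Drp1 KO and 0.0853 to 0.419 in Fis1 KO libraries.

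**Figure D3:**
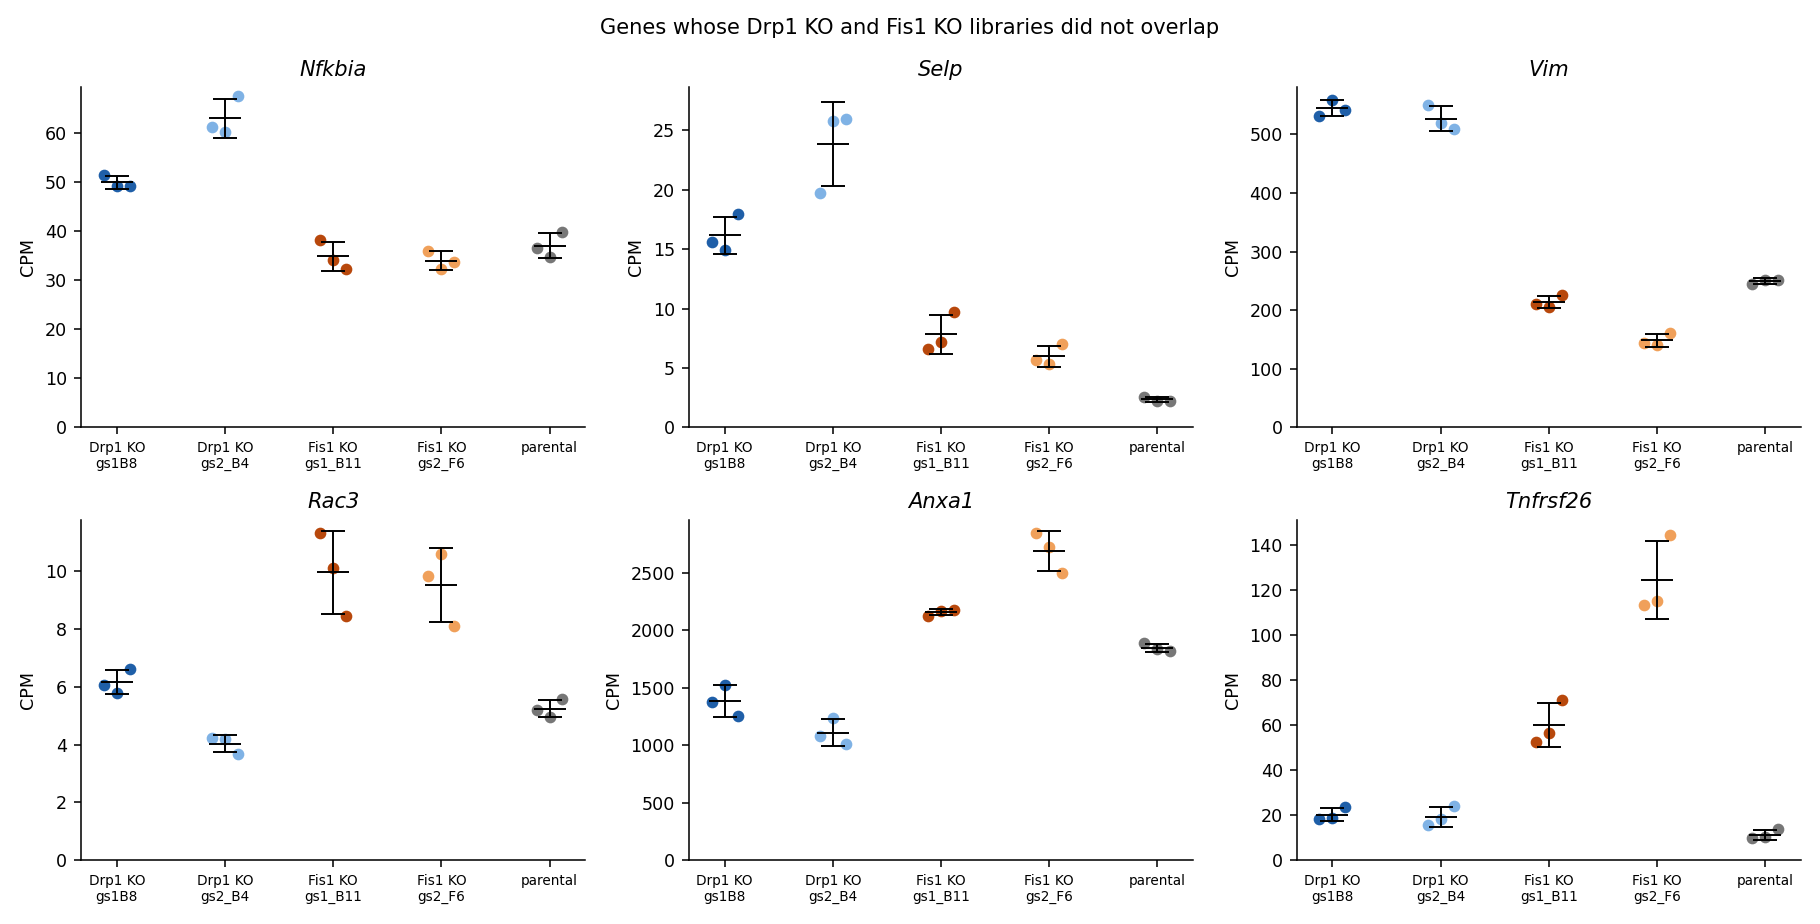
Nfkbia, Selp, Vim, Rac3, Anxa1 and Tnfrsf26 in CPM (vertical axes from 0) in each library, with the clone mean and the SD over 3 libraries. In the first 3 genes all Drp1 KO libraries lie above all Fis1 KO libraries, and in the others all lie below them; parental levels are at the Fis1 KO side for Nfkbia, at the Drp1 KO side for Rac3, and outside both genotypes for Selp and Tnfrsf26.

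Among the 10 genes chosen on the other side, the one with the largest difference was Tnfrsf26, a gene of the TNF receptor family. It had 18.2, 18.7 and 23.7 CPM in gs1B8 and 15.6, 18.2 and 24.2 CPM in gs2_B4, against 52.6, 56.3 and 70.9 CPM in gs1_B11 and 113, 115 and 144 CPM in gs2_F6. All 4 clones were above the parental cells (9.61 to 13.8 CPM), the Fis1 KO clones further, and the log2 fold change was -2.20 ± 0.63. Rac3, a small GTPase of the cytoskeleton, had 3.69, 5.0 and 6.6 CPM (lowest, median, highest) in Drp1 KO and 8.10, 9.98 and 11.3 CPM in Fis1 KO libraries, with 4.97 to 5.57 in parental cells (-0.94 ± 0.26).

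Anxa1 encodes annexin A1, a phospholipid-binding protein that dampens inflammation. It had 1378, 1528 and 1252 CPM in gs1B8 and 1080, 1239 and 1006 CPM in gs2_B4, against 2129, 2170 and 2175 CPM in gs1_B11 and 2850, 2723 and 2500 CPM in gs2_F6. Parental cells, at 1819 to 1889 CPM, lay between the genotypes (log2 fold change -0.95 ± 0.25). Plekha2, a phosphoinositide-binding adaptor, had 85.7 to 107 CPM in Drp1 KO and 127 to 138 in Fis1 KO libraries (-0.46 ± 0.12). Sfn, an epithelial adaptor protein of the cell cycle, had 102 to 128 CPM in Drp1 KO and 151 to 174 in Fis1 KO libraries (-0.42 ± 0.12).

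The other 4 genes of this group lie on chromosome 18. Stard4, which moves cholesterol between membranes, had 86.3 to 98.4 CPM in Drp1 KO and 129 to 139 in Fis1 KO libraries, with 103 to 110.1 in parental cells (-0.53 ± 0.12). Me2, the mitochondrial malic enzyme, had 97.8 to 119 CPM in Drp1 KO and 143 to 158 in Fis1 KO libraries, with 126 to 128 in parental cells (-0.43 ± 0.12). The mitotic kinesin gene Kif20a had 177 to 187 CPM in Drp1 KO and 233 to 242 in Fis1 KO libraries (-0.38 ± 0.10), and the dynactin-associated protein gene Dynap had 42.1 to 65.1 CPM in Drp1 KO and 86.0 to 107 in Fis1 KO libraries (-0.85 ± 0.20). Kif20a overlaps Cdc23, which averaged 1782 counts against 5273. Unadjusted p for the 10 lower genes ran from 0.000298 to 0.0151 in edgeR, with every adjusted p at 1.

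Genes of chromosome 18 as a whole were lower in Drp1 KO than in Fis1 KO clones. Over its 254 genes with a fitted log2 CPM above 2, the median log2 fold change was -0.24 and 90.9% were below 0, beside a median of 0.00 over all 10067 such genes. Against the parental mean, the chromosome 18 median was 0.02 in gs1B8 and 0.08 in gs2_B4, and 0.33 in gs1_B11 and 0.21 in gs2_F6. The Fis1 KO clones were therefore the ones above the parental level. In 5 consecutive blocks of 50 or 51 genes along the chromosome the medians ran from -0.26 to -0.18. Chromosome 18 held 2.79% of the genes tested and 42 of the 127 genes with an unadjusted p below 0.05 that were lower in Drp1 KO, or 33.1%. Less the chromosome's median, Me2 stood at -0.20, Kif20a at -0.14, Stard4 at -0.29 and Dynap at -0.62.

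Chromosome 19, which carries Anxa1, had a median of -0.29, with -0.12 in gs1B8 and -0.59 in gs2_B4, and -0.07 in gs1_B11 and -0.01 in gs2_F6 against the parental mean. Chromosome 8, which carries Plekha2 and Dhodh, had a median of -0.17, with -0.36 in gs1B8 and -0.58 in gs2_B4, and -0.27 in gs1_B11 and -0.29 in gs2_F6. Chromosome X differed between clones of a genotype, with -0.25 in gs1B8 and -0.52 in gs2_B4, and -0.77 in gs1_B11 and 0.02 in gs2_F6. The part of these chromosome medians in the differences of single genes was not tested, and the pattern was looked for after the values of the named genes were seen.

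**Figure D4:**
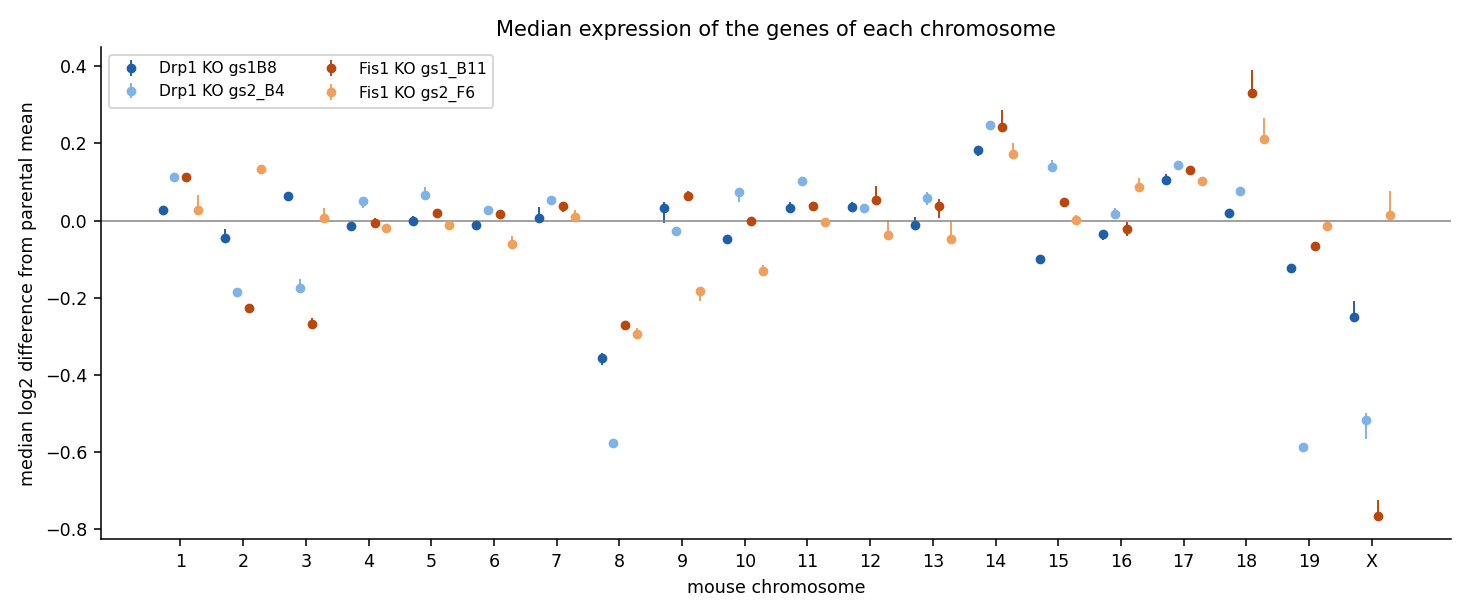
Median log2 difference from the parental mean (vertical axis) of the genes on each mouse chromosome (horizontal axis) in the 2 Drp1 KO clones (blue) and the 2 Fis1 KO clones (orange); points are the middle and bars the range of the 3 libraries of a clone. On chromosome 18 the Fis1 KO clones stand at 0.33 and 0.21 and the Drp1 KO clones at 0.02 and 0.08, and on chromosome 19 gs2_B4 stands at -0.59.

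Genes of epithelial junctions and polarity leaned lower in Drp1 KO. Of 44 tested members, 37 were lower and 7 higher, the median was -0.37, and the 4 pairings of clones gave medians of -0.31, -0.24, -0.45 and -0.25, all below 0. None was called, 3 lower members and 1 higher member had an unadjusted p below 0.05 in edgeR, beside 0.819% lower and 1.23% higher of all genes tested. Wholly below the Fis1 KO libraries lay 8 members, beside 3.01% of all genes. Rab25, a GTPase of apical recycling, had 8.27, 10.7 and 13.2 CPM (lowest, median, highest) in Drp1 KO and 15.3, 28.4 and 45 CPM in Fis1 KO libraries (-1.45 ± 0.51). The tight-junction gene Ocln had 31.8 to 44.0 CPM in Drp1 KO and 48.9 to 59.4 CPM in Fis1 KO libraries. Jup, which encodes plakoglobin of desmosomes, had 63.5 to 73.9 CPM in Drp1 KO and 86.3 to 103 in Fis1 KO libraries. Cdh1, the E-cadherin gene, overlapped, with 202 to 378 CPM in Drp1 KO and 343 to 438 in Fis1 KO libraries (-0.43 ± 0.30). Tjp3, the member with the smallest p, had 0.111 to 0.229 CPM in Drp1 KO and 0.465 to 1.29 in Fis1 KO libraries, and it overlaps Apba3, which averaged 294 counts against 12.2.

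All 8 tested keratins were lower in Drp1 KO, with a median of -0.47 and no unadjusted p below 0.05 in edgeR. Krt14, a basal keratin, was the only one with no overlap, at 49.8 to 108 CPM in Drp1 KO and 156 to 236 in Fis1 KO libraries, against 54.3 to 69.0 in parental cells. Vim, the mesenchymal intermediate filament, was on the higher side, with 532, 559 and 542 CPM in gs1B8 and 551, 520 and 509 CPM in gs2_B4, against 211, 205 and 226 CPM in gs1_B11 and 145, 139.9 and 160.5 CPM in gs2_F6. Parental cells had 244 to 252 CPM. The list of extracellular matrix and mesenchymal genes that holds Vim was mixed, with 16 of 28 tested members higher, 12 lower and a median of 0.05. The log2 fold change of Vim, 1.58, had a standard error of 1.52 (edgeR unadjusted p = 0.34), in a fit whose Mff KO clones averaged 578 and 7.61 CPM. Without the Mff KO clones the standard error was 0.20 and the unadjusted p 0.000529 in edgeR, the second smallest, with an adjusted p of 1.00.

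Vim and Lrp1 were, with the 2 targets, the genes called by limma. Lrp1, a large endocytic receptor, had 90.3, 96.9 and 93.8 CPM in gs1B8 and 189, 240 and 194 CPM in gs2_B4, against 32.3, 32.3 and 28.4 CPM in gs1_B11 and 12.4, 13 and 15.8 CPM in gs2_F6 (2.76 ± 0.83). Among the genes called by DESeq2, Orai2 and D5Ertd605e are described above. Rab11fip4, an effector of recycling endosomes, had 4.29 to 5.33 CPM in Drp1 KO and 1.74 to 2.51 in Fis1 KO libraries. The homeobox gene Lhx6 had 2.79 to 4.13 CPM in Drp1 KO and 0.848 to 1.95 in Fis1 KO libraries. Antxr1, a collagen-binding anthrax toxin receptor, had 0.652 to 1.39 CPM in gs1B8 and 6.08 to 6.44 in gs2_B4, against 0 to 0.128 in Fis1 KO libraries. Pdgfrl had 1.71 to 5.90 CPM in Drp1 KO and 0.225 to 0.512 in Fis1 KO libraries. Slc16a10, Shfl and A630001G21Rik reached at most 0.375, 0.593 and 0.0848 CPM in Fis1 KO libraries. Slc16a10 averaged 1.19 CPM in gs1B8, 3.40 in gs2_B4 and 0.813 in parental cells. In the same order Shfl averaged 1.22, 5.07 and 6.04 CPM and A630001G21Rik 0.229, 1.47 and 2.21 CPM. For these last genes, Shfl and A630001G21Rik, the Drp1 KO clones were below the parental cells. Tgfbr3 was called with 156, 109 and 170.0 counts in gs2_B4 and 0 counts in the libraries of gs1B8, gs1_B11 and gs2_F6, so that its call rests on 1 clone. The pseudogene Rpl7a-ps11 was called on 680.0 counts in 1 gs1_B11 library, and the other KO libraries had 0. Gm10222 was called on 160.0 counts in 1 gs1B8 library, and 1 gs2_B4 library had 3.

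Genes of the respiratory chain and of mitochondrial upkeep had medians near 0. The 13 mRNAs encoded by mitochondrial DNA had a median of -0.07, the 37 nuclear subunits of complex I a median of -0.08 with 29 lower, and the 37 of complexes II to V a median of -0.06 with 33 lower. All 4 pairings of clones had medians below 0 in both nuclear lists, from -0.14 to -0.004 for complex I and from -0.13 to -0.06 for complexes II to V. Wholly below the Fis1 KO libraries lay 3 and 4 members, beside 3.01% of all genes tested. Atp5a1, the alpha subunit of ATP synthase, had 711 to 791 CPM in Drp1 KO and 903 to 1035 in Fis1 KO libraries (-0.37 ± 0.11, edgeR unadjusted p = 0.0182). Afg3l2, a protease of the inner membrane, had 90.2 to 94.3 CPM in Drp1 KO and 112 to 126 in Fis1 KO libraries (-0.37 ± 0.13). Both genes lie on chromosome 18. Fusion and cristae genes had a median of -0.05 (19 tested, 13 lower), mitochondrial DNA maintenance and biogenesis -0.08 (20), peroxisome 0.06 (33) and the TCA cycle with fatty acid oxidation -0.05 (35). In the last list Cpt1a, which brings fatty acids into mitochondria, had 10.4 to 12.7 CPM in Drp1 KO and 13.9 to 20.7 in Fis1 KO libraries (-0.63 ± 0.40).

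Stress pathways gave small medians. In the endoplasmic reticulum unfolded protein response, 18 of 22 members were higher in Drp1 KO, with a median of 0.14. Its chaperone Hyou1 had 182 to 224 CPM in Drp1 KO and 128 to 179 in Fis1 KO libraries (0.41 ± 0.19). Targets of ATF4 in the integrated stress response had a median of 0.08 (29), and Trib3, a pseudokinase among them, had 3.77 to 9.65 CPM in Drp1 KO and 2.55 to 5.16 in Fis1 KO libraries (0.99 ± 0.37, edgeR unadjusted p = 0.0393). Mitosis genes had a median of -0.08, with 26 of 30 lower. Medians for DNA replication (-0.02, 35 genes), MYC and ribosome biogenesis (-0.01, 36) and glycolysis (-0.02, 18) were near 0, and the signs of these lists differed between pairings of clones.

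**Figure D5:**
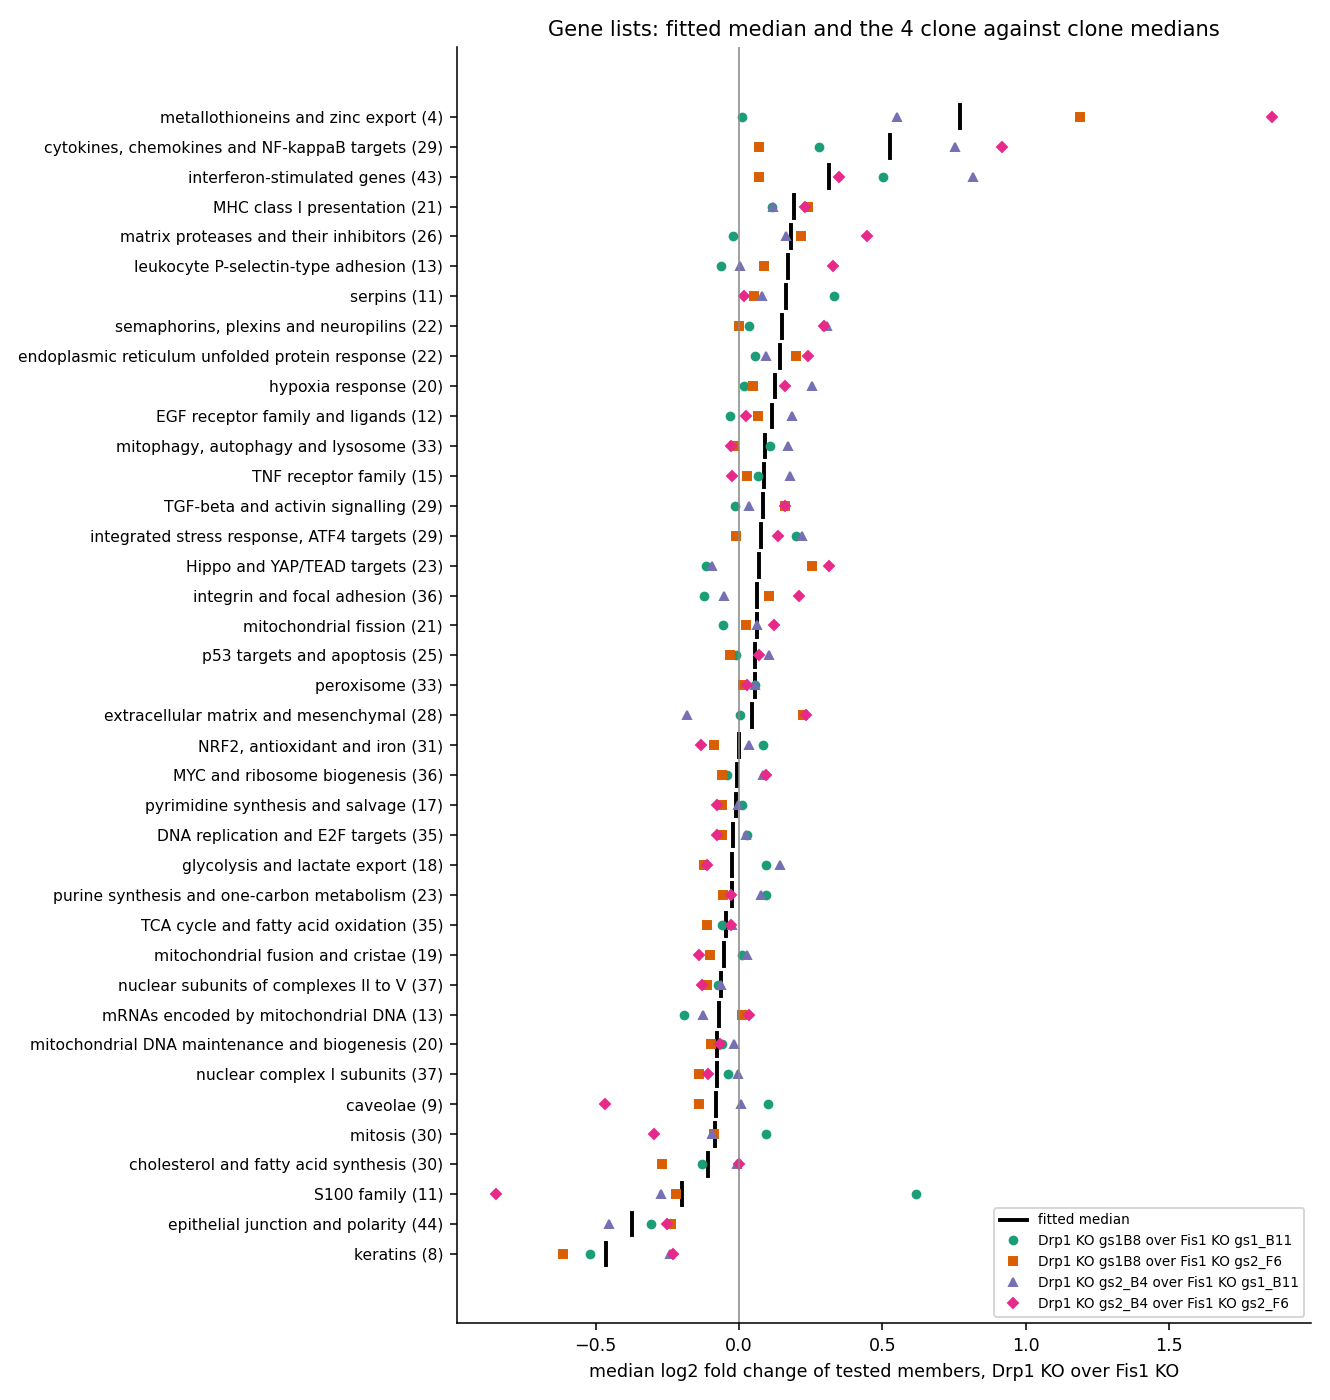
Median log2 fold change of the tested members of each of 39 gene lists (horizontal axis, Drp1 KO over Fis1 KO; number of tested members in brackets): black bars are medians from the fit of the clone sums, and coloured symbols medians for each of the 4 pairings of a Drp1 KO clone with a Fis1 KO clone over members in the library fit. The symbols of the cytokine list run from 0.07 to 0.92, those of the epithelial junction list from -0.45 to -0.24, and most lists straddle 0.

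Some genes were all but silent in part of the clones. Hexa, a lysosomal hexosaminidase subunit, had 0 counts in the 6 Fis1 KO libraries together and 2 counts in gs1B8, but 21.3, 22 and 21.4 CPM in gs2_B4 and 3.29 to 4.05 CPM in parental cells. The level in gs2_B4 was at least 1121-fold above the 3-count floor of the Fis1 KO libraries (0.0192 CPM over the group), a limit that covers counting error only. Mal2, which takes part in transcytosis, had 0 or 1 count in each Drp1 KO library, against 182, 158 and 117 counts in gs1_B11 and 5, 1 and 0 counts in gs2_F6, with 1270.0 to 1660.0 counts in parental libraries. The desmosomal cadherin gene Dsc2 had 8.69, 7.81 and 8.07 CPM in gs1B8 and 0, 0.0831 and 0 CPM in gs2_B4, against 6.35 to 10.1 in Fis1 KO libraries. Cldn9, a claudin, had 0.122 to 0.267 CPM in gs1B8 and 29.8 to 35.1 in gs2_B4, against 0.884 to 3.03 in Fis1 KO libraries. In each of these genes 1 clone set the difference between genotypes.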

How the data were processed

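RNA was isolated with TRIzol, libraries were made with a poly-A selecting KAPA kit per the labels' protocols, and 12 libraries of 2 genotypes were compared, with the 3 parental libraries as background. Per the submitters' processing notes, reads were trimmed with Trimmomatic 0.35 and quantified with RSEM on GRCm38 (mm10). The sources used here do not name the RSEM version, the aligner or the use of strand. Per the file, the authors deposited RSEM expected counts, unnormalized, for 55401 genes. Whole numbers made up 91.5% of all entries, zeros included, and 74.9% of the nonzero entries. The remainder were rounded for the fits. Libraries were grouped by column names.

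Counts were summed over the 3 libraries of each clone. Sums of 6 clones (Drp1, Fis1 and Mff KO) were fitted in R 4.3.3 with edgeR 4.0.16 (filterByExpr, TMM, quasi-likelihood F test, Benjamini-Hochberg over 15513 genes, adjusted p below 0.05), contrast Drp1 KO minus Fis1 KO, with a median of 5.66 degrees of freedom per gene. Standard errors and 95% intervals come from that fit. CPM per library use TMM factors of the knockout arm, and log2 CPM a prior count of 2. Alternatives used DESeq2 1.42.0 and limma 3.58.1 (clone correlation 0.73) and other fits.

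The comparison, members and 39 gene lists were chosen with earlier results of these data known, and no list was tested. Named were both targets, Mff, Opa1, the mitofusins and Dhodh. As none was called, 10 genes in each direction followed, by smallest p, with at least 5 CPM in the higher genotype and no library overlap. Each list's member with the smallest p was also drawn, but only some of these are described. Genes called by DESeq2 or limma and other list members were chosen after their values were seen. Replicate libraries of a clone differed by 3.92 to 44.1 times the Poisson variance, so none was a duplicate. The promoter motif was shortened by a base after a first search with a longer form. The floor of 3 counts covers counting error only.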

Additional observations from a re-analysis of the deposited data

Results flagged for a closer look

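In 4 of 144 sets of 6 libraries examined, 1 library stood apart from the other 5 by a gap past the 95% critical value of Dixon. For 6 alike libraries chance alone gives about 1 in 20. Each set held 2 clones of 3 libraries, which often differed, so that rate does not apply to this count. The pseudogene Gm10222 was at 6.52 CPM in gs1B8 replicate 3 and at 0 to 0.111 CPM in the other Drp1 KO libraries. Sfn was at 102 CPM in gs2_B4 replicate 3 and at 122 to 128 CPM in the other Drp1 KO libraries, still below every Fis1 KO library. The pseudogene Rpl7a-ps11 was at 25.5 CPM in gs1_B11 replicate 2 and at 0 in the other Fis1 KO libraries. Ribosomal RNA took 6.40% of the counts of gs1_B11 replicate 1 and 2.56% to 3.35% of those of the other Fis1 KO libraries.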

How the results depend on the processing

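The count of 0 called genes stayed at 0 with DESeq2 size factors, no filter on low counts (28352 genes), the 4 clone sums alone, ribosomal RNA genes left out, a 2-fold minimum, each of 3 serial runs of columns alone, and chromosomes 18 and 19 left out, the last chosen after seeing the data. It was 0 to 0 with each clone or library left out, while genes with an unadjusted p below 0.05 numbered 144 without gs2_B4 and 698 without gs1B8, against 318. The count was 14 with DESeq2, 4 with limma, 474 where all 4 pairings of clones had to pass, 5127 with libraries as replicates and 5636 with the serial run as a replicate block in that fit. Under these settings Dnm1l passed at -2.02 with DESeq2, -2.08 with limma, -2.07 with libraries as replicates and -2.07 with the replicate block. In the same order, Fis1 passed at 1.56, 1.54, 1.56 and 1.56. Both genes also passed in all 4 pairings, which are contrasts of the fit with libraries as replicates and add no estimate of their own. The columns carry serial numbers and not the labels' replicate numbers, so the block was not taken as a pairing. Deviations of same-run libraries of different clones correlated at -0.02 to 0.16 (mean 0.06). For libraries of different runs the range was -0.15 to 0.09 (mean -0.03). Deviations of the 3 libraries of a clone are tied to each other, so the second mean follows from the first. A small shared run effect may be present but was not tested. With each clone or library left out, Dnm1l ran from -2.43 to -1.70 and Fis1 from 1.43 to 1.71.

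Of 1919 values under the alternatives, for 67 genes drawn by the naming rules and not all described here, 1911 kept their direction. Many of these genes were drawn for a small p, no library overlap or a call by another tool in these same data. That choice favours an unchanged direction, so the count does not measure how stable the differences are. The values entered for the pairings repeat those of the fit with libraries as replicates. Mff (0.07) ran from -0.014 without gs2_B4 to 0.140 with clones or libraries left out and was -0.019 in serial run 3 alone. Mfn1 (0.02) ran from -0.199 without gs1_B11 to 0.282 and was -0.182 without gs1B8, and Opa1 (-0.12) ran from -0.269 to 0.0501 without gs2_F6. The mitochondrial mRNA mt-Co3 (0.24) ran from -0.311 without gs1B8 replicate 3 to 0.549 and was -0.406 in serial run 1 alone, and S100a14 (-3.44) ran from -4.41 to 0.492 without gs2_F6. The cause was not tested. Of 1092 list medians, 1050 moved by less than the SD over the 4 pairings, 42 moved by more and 49 had the opposite sign. The median of the cytokine list (0.53) ran from 0.0056 without gs2_B4 to 0.73 with a clone left out, and that of interferon-stimulated genes (0.32) from 0.13 without gs2_B4 to 0.69 without gs2_F6. With 2 clones a genotype, the number of clones limits every p.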

Other observations

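The genes that follow had the smallest p of their gene lists, and none had an adjusted p below 0.05 in edgeR. Their lists as a whole had medians from -0.08 to 0.18, with 16 higher and 12 lower among extracellular matrix and mesenchymal genes (0.05), 22 and 14 among integrin and focal adhesion genes (0.06), 18 and 8 among matrix proteases and their inhibitors (0.18), 17 and 12 in TGF-beta signalling (0.08), 6 and 5 among serpins (0.16) and 2 and 7 among caveolar genes (-0.08). In each of the 6 genes the genotypes did not overlap, as in 2.46% (above) and 3.01% (below) of all genes tested. Choice by smallest p favours such genes, and in other lists the member so chosen did overlap, as with Krt80 and F3. The shares therefore do not measure how unusual these 6 genes are. Col5a1, a fibrillar collagen gene, had 16.8 to 28 CPM in Drp1 KO and 3.94 to 11.5 in Fis1 KO libraries, with 6.21 to 8.32 in parental cells (1.56 ± 0.49). Plau, the urokinase gene, had 308 to 479 CPM in Drp1 KO and 226 to 306 in Fis1 KO libraries (0.47 ± 0.17), and Tns3, a focal adhesion adaptor, had 330.1 to 439 CPM in Drp1 KO and 246 to 296 in Fis1 KO libraries (0.51 ± 0.19). Bmp7, a ligand of the TGF-beta family, had 5.29 to 16 CPM in Drp1 KO and 0.0831 to 2.84 in Fis1 KO libraries (3.17 ± 1.25). Serpinb5, the maspin gene, had 29 to 39.1 CPM in Drp1 KO and 43.8 to 56.9 in Fis1 KO libraries (-0.51 ± 0.17). The caveolar gene Cavin2 had 9.55 to 36.3 CPM in Drp1 KO libraries and 0 to 3.02 in Fis1 KO libraries, with 20.8 to 27.6 in parental cells.

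The metallothionein genes Mt1 and Mt2, whose products bind zinc and copper, had levels that were not alike in clones of a genotype. Mt1 had 10.8 to 11.7 CPM in gs1B8 and 37.1 to 41.6 in gs2_B4, against 9.71 to 16.9 in gs1_B11 and 2.05 to 3.24 in gs2_F6, with 9.98 to 12.3 in parental cells. Mt2 had 21.6 to 24.9 CPM in gs1B8 and 36.0 to 42.2 in gs2_B4, against 20.2 to 25.5 in gs1_B11 and 2.86 to 3.90 in gs2_F6. Car9, a hypoxia-induced carbonic anhydrase, was at 0 to 0.267 CPM in Drp1 KO, 0.326 to 1.02 CPM in Fis1 KO and 5.20 to 6.35 CPM in parental libraries.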
